A study of Mus musculus with 14 samples.

Results

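Indian hedgehog and parathyroid hormone-related protein (PTHrP) form a feedback loop in cartilage, and 9 mouse genes of this loop were followed by chromatin immunoprecipitation with sequencing. They were the ligand genes Ihh and Pthlh, the receptor genes Pth1r, Ptch1 and Smo, the transcription factor genes Gli1, Gli2 and Gli3, and the inhibitor gene Hhip. The genes were chosen by name, with earlier results of these data known. A peak was assigned to a gene when it overlapped the gene's span, extended by 5 kb on each side, by at least 1 bp. Of 170889 peaks in 12 lists, 127 fell in these 9 windows, and the 9 genes stood among 21883 protein-coding genes read in the same way. The cells were ATDC5, a line from the mouse teratocarcinoma AT805 that forms cartilage-like nodules. Per the labels' protocols, chromatin was prepared on days 0, 3 and 10, and differentiation took place in dense droplets in a medium with β-glycerophosphate and an ascorbate phosphate. For each day there were 2 libraries with an antibody against H3K4me3, the trimethylated histone H3 found at promoters that are active or held ready. Another 2 per day were made with an antibody against RUNX2, a runt-domain transcription factor of hypertrophic chondrocytes and osteoblasts. All 12 libraries come from the same line with no genetic change named, and the labels do not say whether the libraries of a day were separate cultures, so their spread may be only technical. Of 14 samples, the 2 inputs were not analysed here, nor were the antibody against SOX9 and the non-specific antibody named in the protocol.

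In the growth plate, prehypertrophic chondrocytes secrete Indian hedgehog, which relieves Smoothened of its inhibition by Patched and so lets the GLI factors activate genes or stop repressing them. One outcome is the production of PTHrP near the ends of the bone. PTHrP acts through its receptor, Pth1r, to hold chondrocytes in a proliferating, immature state and so delays the appearance of further cells that make Indian hedgehog. RUNX2 is known from mouse cartilage as a factor that promotes maturation, and Ihh has been described there as one of its targets.

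The H3K4me3 lists held 13765 to 29022 peaks, with the fewest in replicate 1 of day 0 (13765) and replicate 1 of day 10 (15219). Sequencing depth per library is unknown, so a gene without a peak had none called at the depth of its library. The RUNX2 lists held 97 to 108 peaks on days 0 and 10, against 16859 and 19319 on day 3. The RUNX2 lists of day 3 stood apart in another way. They shared 8992 summits at exactly the same base, 53.3% of the shorter list and 46.5% of the longer one, whereas the other 27 pairs of lists with over 1000 summits shared at most 133, and at most 0.545% of the shorter list. The source of these identical summits was not tested, and the agreement of the 2 lists is given below as that of 1 sample. Of 10 chondrocyte marker genes, 6, 8 and 8 carried H3K4me3 in both libraries on days 0, 3 and 10. Of all protein-coding genes, 54.8%, 64.3% and 59.4% did so on those days, and no cell type was called from the markers. The cartilage genes Sox9, Sox5, Sox6 and Col2a1 did so on every day, and Col10a1 and Mmp13, genes of late hypertrophy, on none. Of the 3 blood markers, 0, 3 and 2 did so on days 0, 3 and 10, of 3 adipocyte markers 1 on each day, and of 3 osteoblast markers 1, 1 and 2, while no endothelial or skeletal muscle marker did on any day. Their part in the results below was not tested.

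H3K4me3 was called at 7 of the 9 genes in all 6 lists, from undifferentiated cells onwards. Ihh and Hhip were the exceptions, with no peak in either list of day 0 and a peak in both lists of day 3. A gene is called marked on a day when each of the 2 libraries had a peak there. The 9 genes had 7, 9 and 8 marked members on days 0, 3 and 10, where 54.8%, 64.3% and 59.4% of all protein-coding genes were marked. Longer genes have wider windows. On day 0 the marked share was 45.5% of genes with a span of up to 20 kb, 66.1% of those of 20 to 100 kb and 64.5% of longer ones, and on day 3 it was 53%, 76.3% and 81.9%. Between day 3 and day 0, 2 of the 9 genes gained a peak, that is, both libraries of day 3 and neither of day 0 had one, against 3.23% of all genes. Between day 10 and day 0, 1 of the 9, Ihh, gained one, against 1.11% of all genes. The Gli1 window overlaps the neighbouring gene Arhgap9, but the protein-coding gene whose end lay nearest to each summit was the loop gene itself. None of the 9 lost a peak between day 3 and day 0, between day 10 and day 3 or between day 10 and day 0, where 0.00914%, 0.576% and 0.00914% of all genes did, and none gained one between day 10 and day 3 (0.0457% of all genes). No test was made for single genes, because an exact permutation of 2 against 2 libraries cannot give a two-sided p below 0.333.

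**Figure D1:**
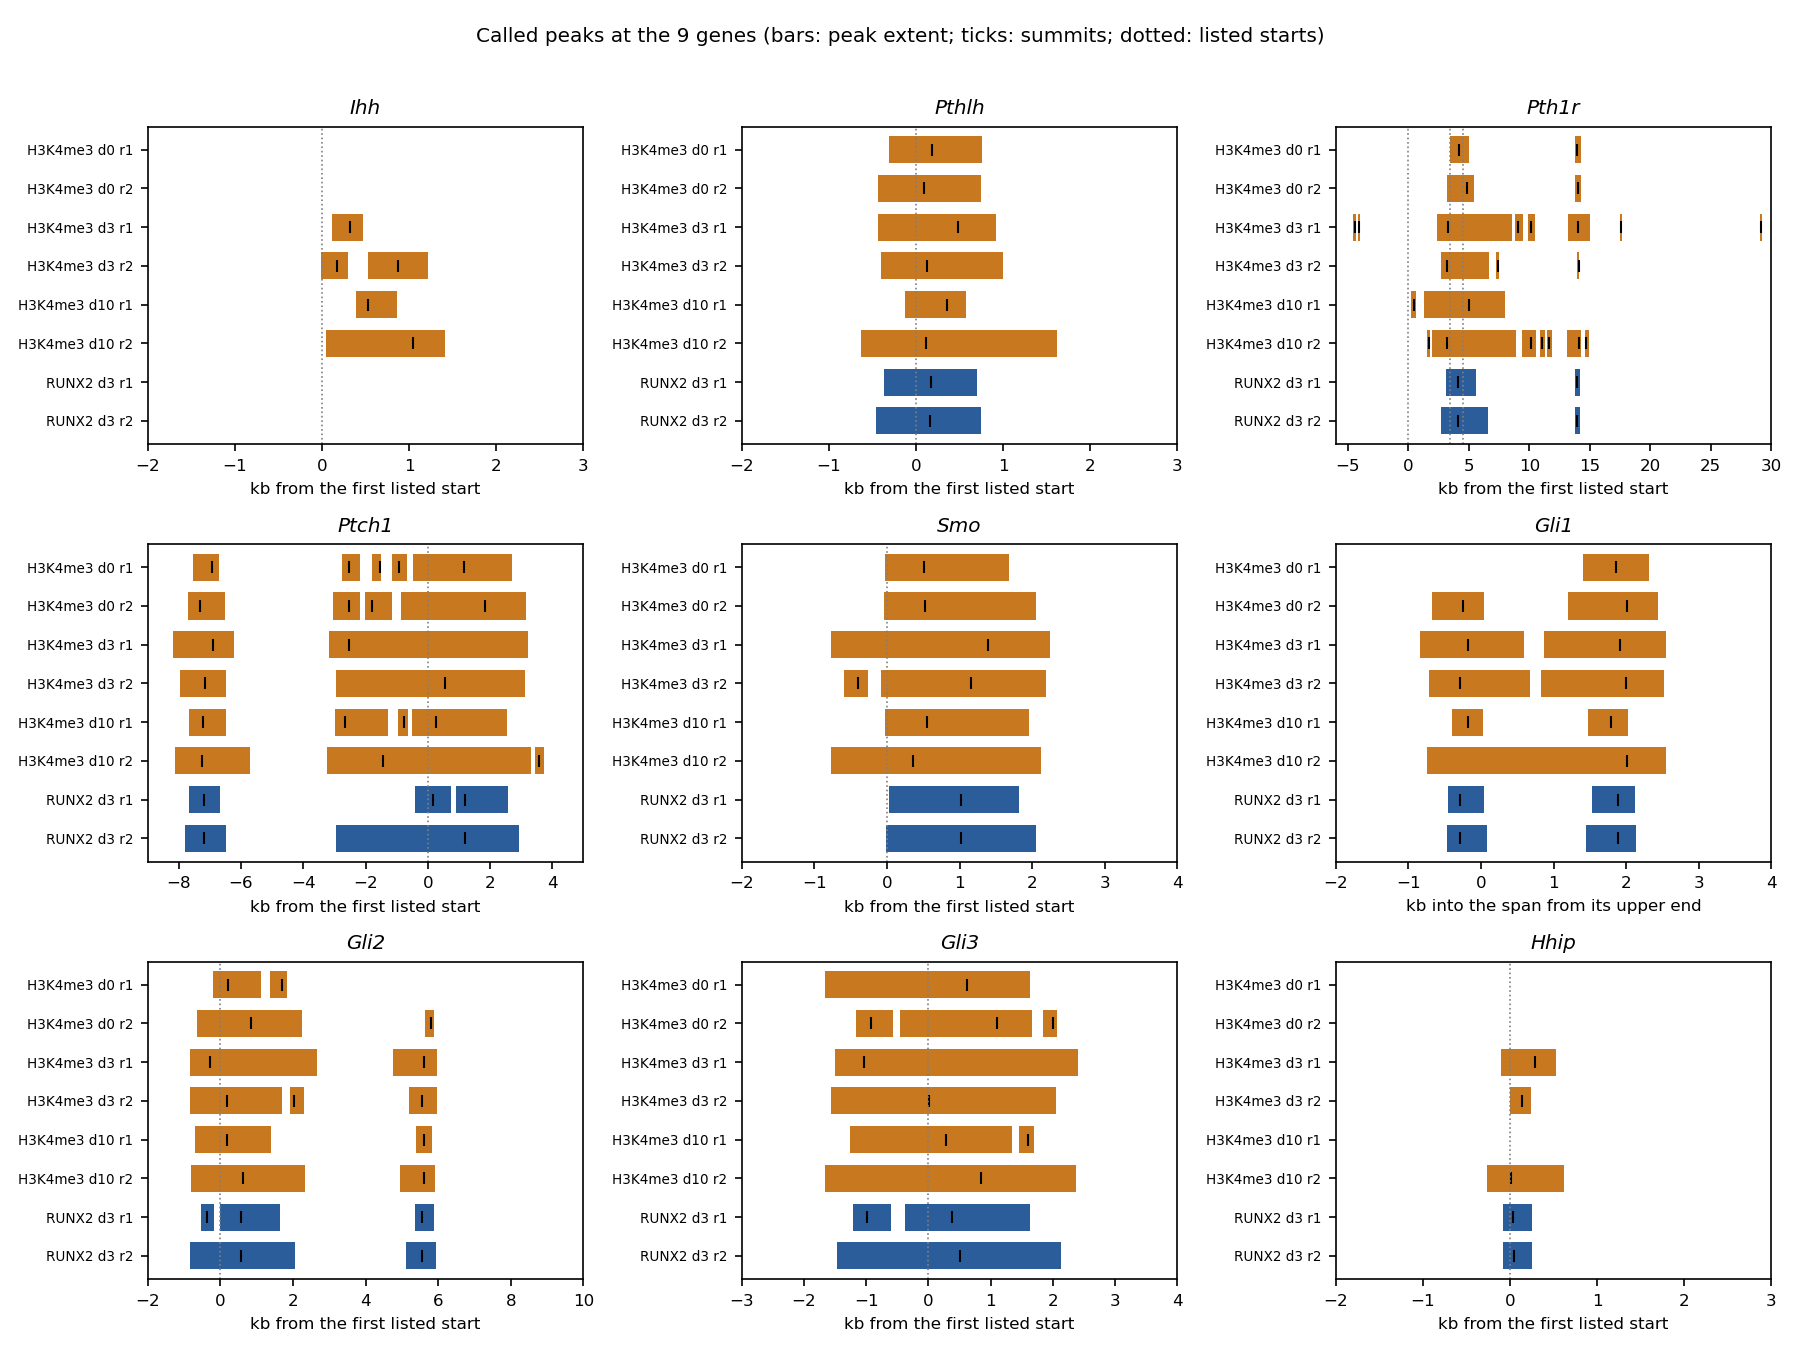
Extent of every peak near the start of each of the 9 genes, in kb along the gene from its first listed start (for Gli1, from the upper end of its span), with 1 row per list, H3K4me3 in orange, RUNX2 in blue, a tick at each summit and dotted lines at listed starts. Ihh and Hhip have no H3K4me3 bar in the rows of day 0, and Ihh has no RUNX2 bar. The RUNX2 lists of days 0 and 10 had no peak in any window and are not drawn, and the peaks of Gli2 about 72 kb inside the gene lie outside the plotted range.

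Ihh, which encodes the hedgehog ligand of prehypertrophic chondrocytes, spans chr1:74945315-74951672 on the minus strand of GRCm38, and its peaks lay in or near the first part of the gene. No peak was called in replicates 1 and 2 of day 0. Its highest fold enrichment over the caller's local background was 5.45 and 4.28 in replicates 1 and 2 of day 3, and 3.86 and 8.40 in those of day 10. Fold enrichments are the authors' values and compare peaks within a list, since the median of a whole H3K4me3 list was itself 5.88 and 6.79 on day 0, 9.79 and 6.98 on day 3, with 11.8 and 7.04 on day 10. The base pairs of the window under H3K4me3 peaks, called covered length below, were 0 and 0 on day 0, 360 and 1003 on day 3, with 471 and 1378 on day 10. The summits lay 168 to 1042 bp downstream of the start. On day 3 the peak of replicate 1 was at chr1:74951198-74951557, and those of replicate 2 were at chr1:74950456-74951139 and chr1:74951369-74951687. These peaks were weak within their lists: 31.5% and 18.9% of the peaks of the 2 lists of day 3 had a lower fold enrichment. Those of day 10 stood above 5.94% of the peaks of replicate 1 and 57.3% of those of replicate 2. The −log10 q was 6.16 and 3.32 on day 3 and 4.33 and 13.0 on day 10. With peaks of a −log10 q of at least 5, or with equal numbers of top peaks from each list, Ihh was no longer marked on day 3 or day 10.

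The 250 bases before the start of Ihh are shown because 1 peak, in replicate 2 of day 3, reached into them. They occupy chr1:74951673-74951922 on the minus strand, from RefSeq with the build GRCm38.p6, and capitals mark the bases under an H3K4me3 peak of any list.
Ihh: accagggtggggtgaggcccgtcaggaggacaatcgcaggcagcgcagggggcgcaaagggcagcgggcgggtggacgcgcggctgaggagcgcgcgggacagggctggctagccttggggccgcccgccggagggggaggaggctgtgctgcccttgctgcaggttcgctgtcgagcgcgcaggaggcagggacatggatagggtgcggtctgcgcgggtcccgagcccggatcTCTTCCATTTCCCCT
The 15 bases next to the start were covered by the second peak of replicate 2 of day 3. The 300 bases around the start, 250 before and 50 after it, held 72.7% G and C and 30 CpG pairs, against a median of 52.7% and 7 over 32851 promoters.

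Pthlh encodes PTHrP, the secreted ligand of the loop, and spans chr6:147252109-147264013 on the minus strand. It had a single H3K4me3 peak over its start in every list. Its fold enrichment was 5.00 and 6.28 on day 0, 22.8 and 13.5 on day 3, with 5.46 and 13.8 on day 10. The covered length was 1076 and 1188 bp on day 0, 1356 and 1396 bp on day 3, and 696 and 2250 bp on day 10. The 2 libraries of day 10 enclosed all the others, so that neither day 0 nor day 3 was separated from day 10. The summits of the 6 lists lay 89 to 479 bp downstream of the listed start. The 300 bases around that start held 74.0% G and C and 33 CpG pairs.

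Pth1r, which encodes the receptor for PTHrP and parathyroid hormone, spans chr9:110722085-110747145 on the minus strand and has 3 listed starts. Its H3K4me3 domain was a few kb long on day 0 and longer in every library of days 3 and 10. The covered length was 2042 and 2651 bp on day 0, 10057 and 4438 bp on day 3 and 7054 and 10634 bp on day 10, and all 4 later libraries lay above both of day 0. On day 0 the main peak was at chr9:110742133-110743669 in replicate 1 and chr9:110741740-110743932 in replicate 2. The first covered the innermost of the 3 starts, and the second also reached the middle one. On day 10 it was at chr9:110739164-110745827 in replicate 1 and chr9:110738255-110745211 in replicate 2, and covered the middle and innermost starts and several kb of the gene body in both. Its fold enrichment was 6.29 and 7.64 on day 0, 23.9 and 11.6 on day 3, with 6.97 and 14.1 on day 10. Merged over the 6 lists, this site was 9206 bp long.

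The mean covered length of Pth1r was 8.84 kb on day 10 against 2.35 kb on day 0, a ratio of 3.77. That ratio was larger than the ratio of 99.7% of the 11931 genes that had a peak in all 6 lists, whose median was 1.21. For day 3 against day 0 the ratio was 3.09, larger than for 98.0% of those genes, with a median of 1.46. For day 10 against day 3 it was 1.22, larger than for 99.5%, with a median of 0.837. Single libraries moved these ratios. Without replicate 1 of day 3, the ratio of day 3 to day 0 was 1.89, larger than for 89.8% of the genes, and that of day 10 to day 3 was 1.99, larger than for 99.9%. The ratio of day 10 to day 3 fell below 1 without replicate 2 of day 3, at 0.879, and without replicate 2 of day 10, at 0.973, which was larger than for 85.6% and 99.3% of the genes. Leaving out any 1 library of days 10 and 0 kept the ratio of day 10 to day 0 between 3.01 and 4.53. Among the genes marked in each list, the share with a shorter covered length than Pth1r was 77.1% and 80.3% on day 0, 99.3% and 94.0% on day 3, with 99.8% and 99.7% on day 10. With peaks of a −log10 q of at least 5 the mean covered length was 8376 bp on day 10 against 2346.5 bp on day 0, and with equal numbers of top peaks it was 6810.5 bp against 2117.5 bp.

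**Figure D2:**
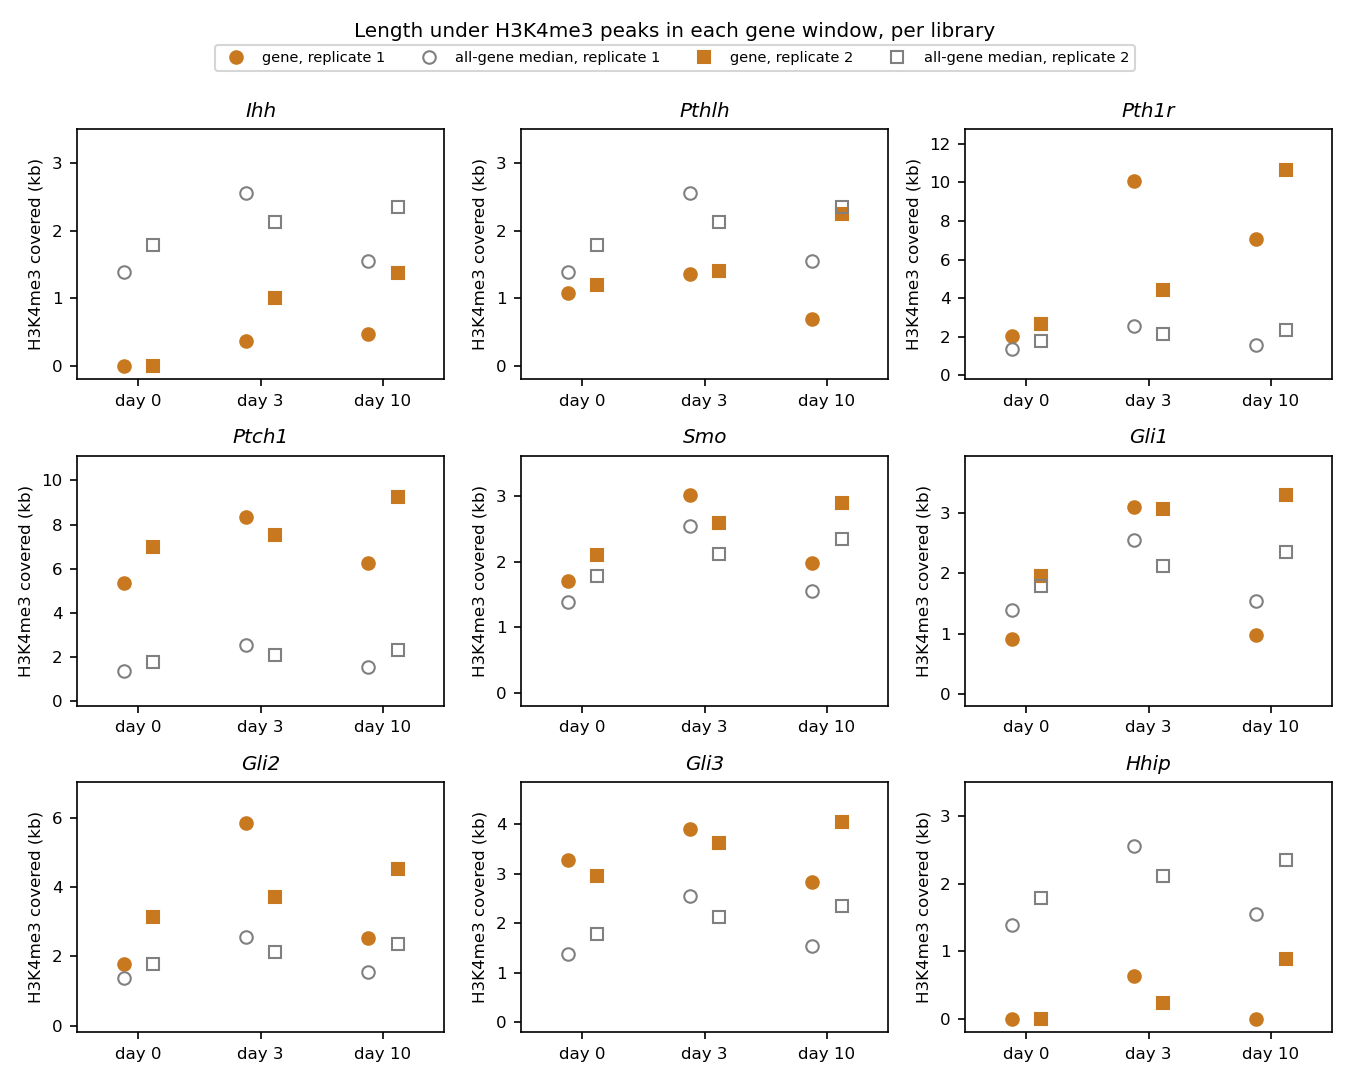
Base pairs under H3K4me3 peaks in the window of each gene, in kb, for each of the 6 lists by day (filled circles for replicate 1, filled squares for replicate 2), with open symbols for the median of the 11931 genes that had a peak in all 6 lists. Pth1r lies at 2.04 and 2.65 kb on day 0 and above 4 kb in all 4 later lists, whereas Ihh and Hhip start at 0.

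Both lists of a day were longer than both lists of an earlier day at a number of the 7 genes marked throughout. On day 3 against day 0 this held for 7 of 7, but also for 81.1% of the 11931 genes with a peak in all 6 lists, and no member was shorter (0.0671% of those genes). On day 10 against day 0 it held for 1 of 7, Pth1r, against 21.5% of those genes, and again no member was shorter (0.344%). No member was longer in both lists of day 10 than in both of day 3 (0.218% of those genes), and none was shorter (19.7%). Covered length followed the list as a whole: its median over the 11931 genes was 1384 and 1784 bp on day 0, 2555 and 2121 bp on day 3, and 1548 and 2349 bp on day 10. The 2 lists with the fewest peaks, replicate 1 of day 0 and of day 10, had the lowest medians. Without replicate 1 of day 10, all 7 members were longer on day 10 than on day 0, as were 92.8% of the genes with a peak in all 5 remaining lists. Without replicate 2 of day 0, 5 of the 7 were, with 65.7% of such genes.

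**Figure D3:**
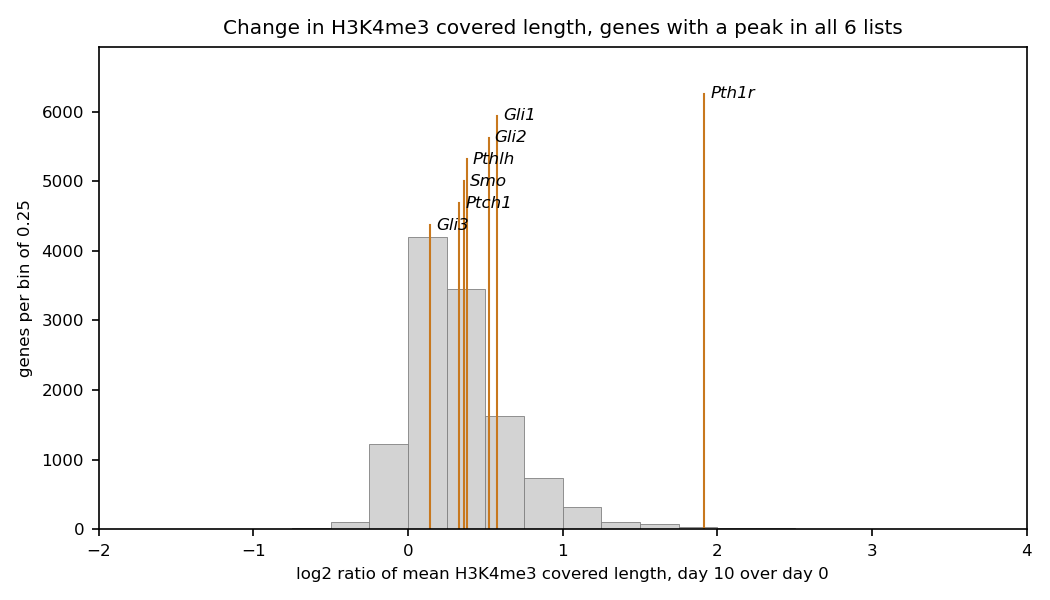
Log2 ratio of the mean H3K4me3 covered length, day 10 over day 0, for the 11931 genes with a peak in all 6 lists (grey bars, genes per bin of 0.25), with a vertical line at each of the 7 loop genes among them, whose height carries no value. Pth1r stands at 1.91 and the other 6 genes between 0.14 and 0.58, on either side of the median of 0.27.

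Ptch1, the hedgehog receptor and itself a standard target of the GLI factors, spans chr13:63508328-63573460 on the minus strand. It carried the widest H3K4me3 of the 9 genes on day 0, in 2 separate domains that were present in all 6 lists. One domain lay around the listed start at position 63565735, within chr13:63562413-63568965. The other lay upstream of it near the end of the gene span, within chr13:63571446-63573928. Peaks covered 5365 and 6980 bp on day 0, 8354 and 7543 bp on day 3 and 6281 and 9265 bp on day 10, longer than in 98.6% to 99.7% of the genes marked in the same list. The highest fold enrichment was 7.22 and 10.4 on day 0, 21.4 and 15.9 on day 3, with 17.2 and 16.3 on day 10. The ratio of mean covered length was 1.26 for day 10 against day 0, with a median over the 11931 genes of 1.21.

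Smo, which encodes the signal transducer that Patched inhibits, spans chr6:29735497-29761366 on the plus strand and had H3K4me3 at its start in all 6 lists. Its highest fold enrichment was 7.95 and 10.9 on day 0, 22.1 and 9.50 on day 3, with 20.6 and 13.2 on day 10. Its covered length was 1705 and 2099 bp on day 0, 3018 and 2596 bp on day 3 and 1985 and 2896 bp on day 10. Smo lay above the median of the 11931 genes in each list, with a ratio of 1.28 for day 10 against day 0.

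Gli1, the activator whose expression reports hedgehog signalling, spans chr10:127329882-127341579. Its H3K4me3 lay in a stretch about 1.9 kb inside the upper end of the span and in a second one at that end. The inner peak was called in every list, with fold enrichments of 5.93 and 9.25 on day 0, 25.9 and 10.4 on day 3, then 5.19 and 12.2 on day 10. The outer peak was absent from replicate 1 of day 0 and had 8.76 in replicate 2, 22.2 and 7.92 on day 3 and 5.18 in replicate 1 of day 10, while in replicate 2 of day 10 both were part of 1 peak. Covered lengths at Gli1 were 911 and 1955 bp on day 0, 3110 and 3074 bp on day 3 and 978 and 3295 bp on day 10. Both libraries of day 3 lay above both of day 0, and the libraries of day 10 lay near the low values of day 0 and above those of day 3. For day 3 against day 0 the ratio of means was 2.16, larger than for 89.6% of the 11931 genes.

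Gli2, the main activator of the pathway, spans chr1:118834061-119054405 on the minus strand and had H3K4me3 at its start in all 6 lists. The highest fold enrichment was 6.31 and 6.97 on day 0, 22.3 and 12.4 on day 3, with 12.5 and 14.2 on day 10. A second site about 5.6 kb inside the gene, within chr1:119047636-119048863, was absent from replicate 1 of day 0 and was called in the other 5 lists. Its fold enrichment was 4.11 in replicate 2 of day 0, 15.2 and 7.92 on day 3, with 5.54 and 8.64 on day 10. Further peaks about 72 kb inside the gene were called in replicate 1 of day 3 (8.08 and 7.13) and replicate 2 of day 10 (3.61). At Gli2 peaks covered 1780 and 3148 bp on day 0, 5869 and 3710 bp on day 3 and 2537 and 4532 bp on day 10. Both libraries of day 3 lay above both of day 0, and those of day 10 overlapped either day.

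Gli3, which acts mostly as a repressor when hedgehog is absent, spans chr13:15463723-15730026 on the plus strand and had the smallest ratio of day 10 to day 0 among the 7 genes marked throughout. Its covered length was 3284 and 2951 bp on day 0, 3906 and 3613 bp on day 3 and 2841 and 4034 bp on day 10. The ratio of means was 1.10, larger than for 28.8% of the 11931 genes. The highest fold enrichment was 7.62 and 9.11 on day 0, 26.1 and 9.79 on day 3, with 20.5 and 11.0 on day 10.

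Hhip encodes a membrane protein that binds hedgehog ligands and limits their action, and it spans chr8:79965850-80058060 on the minus strand. Like Ihh it had no H3K4me3 peak in replicates 1 and 2 of day 0. On day 3 the peak was at chr8:80057480-80058116 in replicate 1, with a fold enrichment of 6.65, and at chr8:80057765-80058005 in replicate 2, with 4.47. On day 10 it was called in replicate 2, at chr8:80057387-80058266 with 10.3, and not in replicate 1, the list with fewer peaks. The covered length was therefore 637 and 241 bp on day 3 and 0 and 880 bp on day 10. Hhip was not marked on day 10 by the rule of both libraries, and would be without replicate 1 of that day. Its −log10 q was 8.69 and 3.78 on day 3, and the mark of day 3 was no longer called with a −log10 q of at least 5 or with equal numbers of top peaks.

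RUNX2 peaks were called on day 3 at 8 of the 9 genes, in each of the 2 lists, and Ihh was the gene without one. Over all protein-coding genes 61.1% had a RUNX2 peak in both lists of day 3, with 50.5% of those with a span of up to 20 kb, 72.8% of those of 20 to 100 kb and 75.5% of longer ones. On days 0 and 10 no member had a RUNX2 peak, where 0.0274% and 0.0183% of all genes did in both libraries. The lists of those days hold about 100 peaks each, so that a gene without a peak on those days shows no loss of RUNX2. By the same counts, 8 of the 9 genes gained a RUNX2 peak between day 3 and day 0 and lost it between day 10 and day 3, against 61% of all genes in either comparison.

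The state of H3K4me3 went with the RUNX2 call across all genes. Of the 11931 genes with H3K4me3 in all 6 lists, 11928 had a RUNX2 peak in both lists of day 3, so the 7 of 7 loop genes among them show nothing beyond that rule. Of the 706 genes that gained H3K4me3 between day 3 and day 0, 262 (37.1%) had RUNX2 in both lists and 337 (47.7%) in neither. Hhip was among the 262 genes and Ihh among the 337 genes. Of the 196 genes that gained H3K4me3 by day 3 and were also marked on day 10, 145 (74.0%) had RUNX2 in both lists and 27 (13.8%), Ihh among them, in neither. A missing call at Ihh does not show that RUNX2 was absent there.

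The members held 15 RUNX2 regions, stretches with a peak in both lists of day 3. All 15 overlapped an H3K4me3 region of day 3, and so did 97.6% of the 17401 RUNX2 regions of the genome. Their median width was 1022 bp, against 1014 bp over all regions. Of the 15, 12 and 14 also overlapped a peak of replicates 1 and 2 of day 0, against 76.6% and 91.6% of all regions, and 13 and 15 one of day 10, against 88.9% and 98.9%. In 8 of the 15 the summits of the 2 lists lay within 1 bp of each other. Over the whole lists, 46.5% and 53.3% of the summits of replicates 1 and 2 were shared at exactly the same base. The share within 1 bp over all regions was not computed. The distance from a RUNX2 summit to the nearest H3K4me3 summit of a list of day 3 was between 2 and 3746 bp. At Hhip the RUNX2 peak had the same extent, chr8:80057753-80058085, in both lists, with fold enrichments of 3.88 and 4.08 and summits 40 and 41 bp downstream of the listed start. The Hhip peak was the weakest by −log10 q of the RUNX2 peaks at these genes, at 4.15 and 4.61, and was no longer called at a −log10 q of at least 5 or with equal numbers of top peaks.

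The 250 bases before the start of Hhip are shown because the RUNX2 region extends into them. They occupy chr8:80058009-80058258 on the minus strand, from RefSeq with the build GRCm38.p6, and capitals mark the 77 bases under the RUNX2 region of day 3.
Hhip: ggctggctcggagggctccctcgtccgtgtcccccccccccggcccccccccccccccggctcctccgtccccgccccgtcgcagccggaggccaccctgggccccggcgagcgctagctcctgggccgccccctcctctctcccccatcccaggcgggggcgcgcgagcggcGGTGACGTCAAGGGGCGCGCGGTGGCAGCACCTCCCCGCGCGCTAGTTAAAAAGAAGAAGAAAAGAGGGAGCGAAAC
The letters TGTGGT, a RUNX core motif, or ACCACA, their reverse complement, did not occur in the promoter of Hhip, which says nothing about binding.

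At Pthlh the RUNX2 peak lay over the start in both lists, with fold enrichments of 6.71 and 8.15 and summits 168 and 160 bp downstream of it. Pth1r had 2 RUNX2 regions. One lay in its main H3K4me3 domain, with 3.82 and 13.9 and both summits at position 110743044. The other was a narrow peak in the gene body, at chr9:110732923-110733368 in replicate 1 and chr9:110732950-110733360 in replicate 2, with 6.87 and 5.19. Both of its summits were at position 110733169, 9441 bp downstream of the nearest listed start. H3K4me3 was called at this inner site in 5 of the 6 lists, replicate 1 of day 10 being the exception, and it was there in both lists of day 0.

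Ptch1 had RUNX2 regions in both of its H3K4me3 domains. The one upstream had fold enrichments of 7.21 and 16.4, with both summits at position 63572932, 7197 bp upstream of the listed start. Around the listed start replicate 1 had peaks of 3.25 and 2.78 where replicate 2 had a single one of 15.0. At Smo the peak had 5.98 and 14.1, with both summits at 29736522, 1025 bp inside the gene. At Gli1 the inner peak had 8.01 and 12.1 and the outer one 4.17 and 7.02. Gli2 had a RUNX2 region at its inner site, with 4.71 and 7.44. At the start of Gli2, replicate 1 had peaks of 5.00 and 3.06 and replicate 2 a single one of 11.9, and likewise at Gli3 replicate 1 had 2.81 and 4.05 and replicate 2 had 12.1. Replicate 2 had the higher fold enrichment in 14 of the 15 regions, which hold 12 peaks of that list. Its single peaks around the starts of Ptch1, Gli2 and Gli3 count in more than 1 region. The median of its whole list was also higher, at 10.1 against 6.25 in replicate 1.

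**Figure D4:**
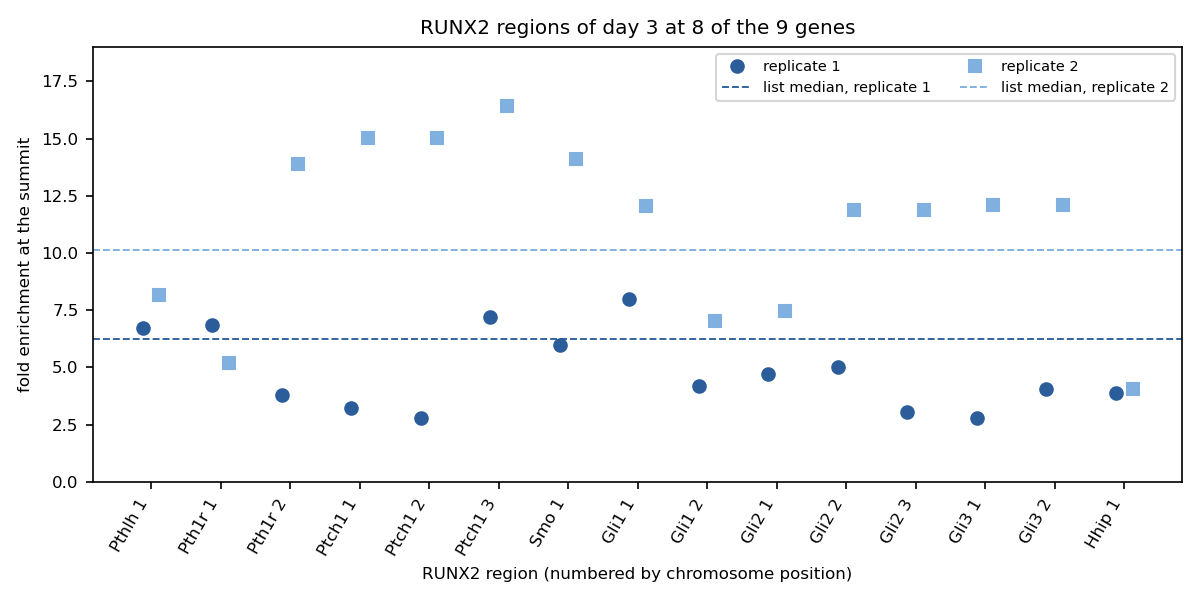
Fold enrichment at the summit of the RUNX2 peaks of day 3 (linear axis from 0) in the 15 regions of the loop genes, with circles for replicate 1, squares for replicate 2 and dashed lines at the median of each list, 6.25 and 10.1. Replicate 2 is higher in 14 of the 15 regions, the exception being the inner region of Pth1r, and Hhip is low in both lists. At Ptch1, Gli2 and Gli3 the same peak of replicate 2 is drawn in more than 1 region.

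Counted by site in place of gene, the H3K4me3 peaks of the 6 lists merged into 22 sites at the 9 genes. Of these, 8 were present in all 6 lists, against 26.6% of the 42397 sites of the genome. Another 9 were present in a single list, and the share of such sites over the genome was not computed. RUNX2 was called in both lists of day 3 at 11 of the 22, against 34.5% of all sites. It was called at all 8 of the first kind, against 99.8% of the sites of that kind in the genome. Of the other 14, 3 had it, against 10.8%. These 3 were the site at the start of Hhip, the inner site of Gli2 and the inner site of Pth1r, the last 2 of which were present in 5 of 6 lists. The Ihh site, present in 4 lists, and the 9 sites of a single list had none. How often single-list sites of the genome had RUNX2 was not computed. Of the 22 sites, 2 were gained between day 3 and day 0, against 7.35% of all sites, and 1, that of Ihh, between day 10 and day 0, against 1.68%.

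Of 10 listed promoters of 8 of the genes, a promoter being the 250 bases before and 50 after a start, 1 held TGTGGT on either strand, that of Gli3, against 16.8% of 32851 promoters. None held TGGGTGGTC or its reverse complement GACCACCCA, a GLI motif, which 0.253% of promoters held. No promoter was listed for Gli1. The Gli3 bases are shown for the match, which lies 120 bases before the start, under an H3K4me3 peak in all 6 lists. They occupy chr13:15463473-15463722 on the plus strand, from RefSeq with the build GRCm38.p6, and capitals mark the motif.
Gli3: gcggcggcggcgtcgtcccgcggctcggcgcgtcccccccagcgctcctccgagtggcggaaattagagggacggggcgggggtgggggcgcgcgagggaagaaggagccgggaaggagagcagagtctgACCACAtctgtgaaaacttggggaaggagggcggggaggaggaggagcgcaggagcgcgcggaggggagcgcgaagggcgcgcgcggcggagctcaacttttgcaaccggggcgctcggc
The match also lay inside a RUNX2 region of day 3, chr13:15463346-15465359, which was called in both lists. It is a description of the sequence, and binding at these bases was not tested. G and C made up 54.3% to 76.3% of the 10 promoters, with the highest share at Ptch1, which also had the most CpG pairs, 47.

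The rest of the 2 pathways was read from a list of 51 further genes, written with earlier results of these data known. Of these, 42, 49 and 44 were marked by H3K4me3 on days 0, 3 and 10, and 42 had a peak in all 6 lists. Over all protein-coding genes, 54.8%, 64.3% and 59.4% were marked on those days and 54.5% had a peak in all 6 lists. Between day 3 and day 0, 2 of the 51, Scube1 and Scube2, gained a peak, against 3.23% of all genes. Both encode secreted proteins that help release hedgehog ligands from cells. Between day 10 and day 0, 1 of the 51, Scube1, gained one, against 1.11% of all genes. None of the 51 lost a peak in any comparison of days, and at most 0.576% of all genes did. On day 3, 45 of the 51 had a RUNX2 peak in both lists, against 61.1% of all genes. Of all genes with H3K4me3 in all 6 lists, 11928 of 11931 had RUNX2. The 42 further genes of that kind therefore show nothing beyond that rule. Scube1 had a covered length of 0 and 0 bp on day 0, 2292 and 1274 bp on day 3 and 1117 and 2524 bp on day 10, with RUNX2. Scube2 had 0 and 0 bp on day 0, 866 and 542 bp on day 3 and 0 and 363 bp on day 10, without RUNX2.

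Over all protein-coding genes, 54.8%, 64.3% and 59.4% were marked on days 0, 3 and 10, and 61.1% had RUNX2 on day 3. Of the 8 genes for other hedgehog ligands and their release, 4, 8 and 5 were marked on days 0, 3 and 10. Shh, the sonic hedgehog gene, had 0 and 1081 bp on day 0, 1039 and 621 bp on day 3 and 0 and 263 bp on day 10, with no RUNX2 peak, while Dhh, the desert hedgehog gene, and Hhat, which encodes the acyltransferase of hedgehog proteins, were marked on each day. All 5 receptor and co-receptor genes, among them Gas1 and Cdon, were marked on each day and had RUNX2 on day 3. The same held for all 14 cilium and GLI regulators, among them Sufu, Kif7 and Stk36. A pair of genes among the 14 had identical covered lengths in every list, so the same peaks count for both. All 15 genes of PTHrP signalling, among them the G protein genes Gnas, Gnaq and Gna11, were likewise marked on each day with RUNX2 on day 3. These 5, 14 and 15 genes had H3K4me3 in all 6 lists, as did 11931 genes, of which 11928 had RUNX2. Of 6 hedgehog targets, 4, 6 and 5 were marked on days 0, 3 and 10; Foxf1 and Foxc2 were marked throughout and Foxl1 lacked a peak in replicate 1 of day 0. Of the 3 relatives of the PTHrP ligand and receptor, 0, 1 and 0 were marked and none had RUNX2. Pth, the parathyroid hormone gene, had no H3K4me3 peak in any list, Pth2 was marked on day 3 and Pth2r had a peak in replicate 1 of day 3.

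The genes with the pattern most like Ihh over the 12 lists, by Euclidean distance between the values of log2(covered bp + 1), were Plpp7 at 1.47, Esyt3 at 1.76 and A630001G21Rik at 1.93. Like Ihh they had H3K4me3 in the 4 lists of days 3 and 10 and no RUNX2 peak. Nearest to Pthlh were Rad54l at 0.517, Bub3 at 0.540 and Tmem41a at 0.549. Nearest to Hhip were Mro at 0.711, Olfr1033 at 0.727 and Kcnq1 at 0.801, each with peaks in the same 5 lists as Hhip. The distance favours genes with peaks in the same lists, so the shared lists follow from the choice and are no separate result. These distances rest on called extents in 12 lists that differ in their number of peaks.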

How the data were processed

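ATDC5 chromatin was precipitated with H3K4me3 or RUNX2 antibodies on days 0, 3 and 10, with 2 libraries each. Per the submitters' processing notes, the authors used FastQC, Trim Galore, HISAT2 2.2.0 and MACS2. Settings, control and further versions: not given in the sources used here. Each deposited list carries the name of 1 library, so peaks were read as called per library. By the order of columns in the narrowPeak format, each deposited list holds positions, a score, a linear ratio for the fold enrichment at each summit, and the −log10 of the p-value and q-value. These values of the authors served to describe and filter peaks inside their own list. The smallest −log10 q was 1.30 to 1.63. Reads per library are unknown, so no interval was computed.

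The notes name the build GRCm39, but 37.9 to 70.1% of the H3K4me3 summits lay within 1 kb of a protein-coding gene end of a RefSeq table of GRCm38.p6, against 6.12 to 7.98% after a shift of 20 kb, and positions were read as GRCm38, counted from 1. That table gave spans, its promoter sequences gave starts and strand, and exons were not used here. Overlapping lines were merged. Marked, gained and lost were counted as the text says, with no test. The functions were tested on simulated lists. The loop genes, the list of 51 further genes, the markers and the rules were chosen with earlier results of these data known. All 9 genes are named, with the further genes that gained or lost a peak, at most 3 examples per role in list order (1 example is not reported here), and the 3 nearest patterns of Ihh, Pthlh and Hhip. Python 3.11.15, pandas 2.3.3, NumPy 2.4.6 and Matplotlib 3.10.9 were used.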

Additional observations from a re-analysis of the deposited data

How the results depend on the processing

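The limits are the unknown depth, 2 libraries per day and a narrow-peak caller that splits wide domains. Of 394 counts over the loop genes and the further list under other settings, 363 stayed within 1.5 times the reported count. Of 1476 calls of single genes, 1446 stayed as reported. Among these are calls that were negative in every setting, such as H3K4me3 lost between day 3 and day 0. The calls that changed were all at Ihh, Hhip, Pth1r or Gli1, and included the H3K4me3 gains of Ihh and Hhip. Covered lengths of single genes moved more often, and 146 of 189 were classed as the same. Loop genes that gained H3K4me3 between day 3 and day 0 numbered 0 with a −log10 q of at least 5 and 0 with equal numbers of top peaks, in place of 2, while all genes that did numbered 768 and 238, in place of 706. Between day 10 and day 0 they numbered 0 and 0 under the same settings, in place of 1, and 2 with a peak in either library, while all genes that did numbered 359, 213 and 1328, in place of 242. Of the further genes, those that gained between day 3 and day 0 numbered 1 with the span extended by 10 kb, 4 with a −log10 q of at least 5 and 0 with equal numbers of top peaks, in place of 2. Between day 10 and day 0 they numbered 0 with 10 kb, 0 with equal numbers and 2 with either library, in place of 1, and 1 was lost between day 10 and day 3 with a −log10 q of at least 5 or with either library. Loop genes with a longer covered length on day 3 than on day 0 numbered 4 of 5 within 1 kb of gene ends, in place of 7 of 7, with 74.8% of all genes with a peak there in every list. On day 10 against day 3, 1 was longer with equal numbers, and 1 was shorter at gene ends and with the span alone, in place of 0, with 0.32%, 24.0% and 21.3% of all genes. Within 1 kb of gene ends Pth1r was not marked by H3K4me3 on any day and had no RUNX2 call on day 3. Gli1 was not marked there on day 0. In that window 1 of 5 loop genes, Gli2, was longer on day 10 than on day 0, against 29.5% of all genes with a peak there in every list. The summits of the main H3K4me3 peak of Pth1r lay 3191 to 5001 bp from the nearest gene end. The cause of these changes was not tested.

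Leaving out 1 library at a time gave ranges. Loop genes that gained between day 10 and day 0 numbered 1 to 2 (2 without replicate 1 of day 10, where 1306 of all genes did, in place of 242), those lost between day 10 and day 3 0 to 1 (Hhip, without replicate 2 of day 10, where 1124 of all genes were, in place of 126). Further genes that gained between day 3 and day 0 numbered 2 to 7 (7 without replicate 2 of day 0, with 2057 of all genes, in place of 706), those gained between day 10 and day 0 1 to 2 and those lost between day 10 and day 3 0 to 5 (5 without replicate 2 of day 10). Loop genes longer on day 10 than on day 3 numbered 0 to 5 (5 without replicate 1 of day 10, with 21.7% of all genes with a peak in every list kept), shorter 0 to 6 (6 without replicate 2 of day 10, with 96.5%; 2 without replicate 2 of day 3, with 76.6%). Those longer on day 10 than on day 0 numbered 1 to 7 (7 without replicate 1 of day 10, with 92.8%), and shorter 0 to 2 (2 without replicate 2 of day 10, with 29.9%). All RUNX2 regions of the loop genes overlapped H3K4me3 in every setting but equal numbers of top peaks (13 of 14). With equal numbers 86.3% of all RUNX2 regions did so, and in the other settings 92.1% to 99.1%. No paired analysis was possible because the results come from no test to which a block could be added, and no label ties libraries of a number across days.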
